A study of Mus musculus with 4 samples.

Results

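Costimulatory and checkpoint ligands are surface proteins with which a macrophage or another antigen-presenting cell raises or restrains the response of a T cell. The group examined here holds 10 genes, *Cd274*, *Pdcd1lg2*, *Cd80*, *Cd86*, *Icosl*, *Cd40*, *Icam1*, *Cd48*, *Cd83* and *Cd69*. They were taken by gene symbol, with no measured value in the rule, but earlier results of these data were known at that choice. All were found among the 20133 genes that could be named on the array. Over the whole series, 14375 genes had a signal well above background on 1 array or more. Of the 10 ligand genes, 9 were well above background on every array, and the other, *Pdcd1lg2*, on the epoxomicin array only. *Cd40* and *Cd69* encode receptors rather than ligands and are known as markers of activation.

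J774 cells, an established mouse monocyte-macrophage line, were kept for 4 hours with DMSO, or with MG132, epoxomicin or an ONX compound at 1 μM. RNA from every culture went onto 1 single-color array, so each condition has 1 array. DMSO is the solvent in which the inhibitors were given, and MG132, epoxomicin and the ONX compound are inhibitors of the proteasome. The treatment label of the ONX array names ONX-0912, whereas the treatment protocol and the paper name ONX 0914, so the array is called the ONX array here. The Methods name a human array design, while the scanner headers give a mouse design, and 67.4% of the probes could be named through mouse transcripts. All 4 arrays lay on 1 slide, no spot was saturated, and between 60.3% and 63.1% of the spots of an array were well above background by the scanner software. With 1 array per condition, the number of arrays limits the precision, no difference below has a replicate check, and no p-value is given. In place of replicates, the spread between repeated spots of a probe was used. Its SD on the log2 scale had a median of at most 0.0614 per array among 399 probes printed 10 times, and 0.0868 is that SD for a difference between arrays. This spread leaves out the variation between cultures.

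A T cell needs a signal through its antigen receptor and a second, costimulatory signal. CD80 and CD86 deliver the latter through CD28 and are also bound by the inhibitory receptor CTLA4, whereas PD-L1 and PD-L2 restrain T cells through PD-1. In macrophages, these genes are known to respond to interferons, to microbial products and to CD40 engaged by a T cell, and the transcription factors that carry these signals include IRF1, NF-kB and AP-1.

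Promoter sequences were at hand for 6 of the 10 genes, in a RefSeq table of GRCm38.p6 that holds the 250 bases before and the 50 bases after each gene start. *Cd86*, *Cd40*, *Cd83* and *Cd69* were not in that table. Both strands were searched for TTCNNNGAA (GAS, the interferon-γ-activated site), for GAAANNGAA (a relaxed form of the ISRE, bound by interferon regulatory factors), for TGANTCA (AP-1) and for the NF-kB consensus. Over all 32851 windows of the table, 8.3% held the GAS, 8.56% the relaxed ISRE, 7.81% the AP-1 motif and 8.46% the NF-kB consensus. *Cd274* and *Icam1* are shown because their level was at least 2-fold higher with every inhibitor in the reported processing. *Cd48* is shown because its level there stayed within the spread between spots, which did not hold under every other setting. Capitals mark matches, and all 3 windows lie on the + strand, at chr19:29367188-29367487 for *Cd274*, chr9:21015690-21015989 for *Icam1* and chr1:171681742-171682041 for *Cd48*.
Cd274: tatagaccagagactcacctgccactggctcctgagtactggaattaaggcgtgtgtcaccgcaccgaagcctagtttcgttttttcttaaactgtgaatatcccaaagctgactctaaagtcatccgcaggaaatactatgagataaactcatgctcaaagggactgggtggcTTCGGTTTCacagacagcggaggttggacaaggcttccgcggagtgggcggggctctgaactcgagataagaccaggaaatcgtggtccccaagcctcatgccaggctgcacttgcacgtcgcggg
Icam1: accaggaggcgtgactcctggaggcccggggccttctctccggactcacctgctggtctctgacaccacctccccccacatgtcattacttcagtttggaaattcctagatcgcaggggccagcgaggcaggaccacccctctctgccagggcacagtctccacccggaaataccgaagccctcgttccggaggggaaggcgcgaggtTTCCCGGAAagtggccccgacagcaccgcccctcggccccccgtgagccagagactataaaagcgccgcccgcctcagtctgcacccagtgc
Cd48: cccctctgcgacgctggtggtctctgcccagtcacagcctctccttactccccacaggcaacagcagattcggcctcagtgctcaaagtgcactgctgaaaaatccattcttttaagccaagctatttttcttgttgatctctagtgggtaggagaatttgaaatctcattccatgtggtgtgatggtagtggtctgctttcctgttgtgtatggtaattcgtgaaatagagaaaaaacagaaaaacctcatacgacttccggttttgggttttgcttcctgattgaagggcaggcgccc
The *Cd274* window held 1 match, to the relaxed ISRE on the opposite strand, from -76 to -68 relative to the gene start. The *Icam1* window held 1 match to the GAS, which reads alike on both strands, from -42 to -34. No match was found in the *Cd48* window. Among the windows not printed, *Cd80* held the AP-1 motif from -42 to -36, *Icosl* held the NF-kB consensus from -111 to -102, and *Pdcd1lg2* held it on both strands of the same bases, from -244 to -235. No 2 different motifs overlapped in these windows. A match describes letters only, and whether a factor binds there was not measured. The NF-kB consensus searched begins with GGG and ends with CC on the matched strand. Sequences that depart from the letters of a motif were not counted, so a window without a match can still hold a site.

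The ligand genes fell into those at least 2-fold higher with each inhibitor (*Cd69*, *Cd274*, *Cd40* and *Icam1*), 1 gene near the 2-fold threshold (*Cd86*), 1 barely detected gene (*Pdcd1lg2*) and 4 genes under 2-fold (*Cd80*, *Icosl*, *Cd83* and *Cd48*). Against DMSO, 4 of the 9 genes compared were at least 2-fold higher with MG132, 5 of 10 with epoxomicin and 4 of 9 with ONX. The same threshold was passed upward by 7.2% of 13850 genes with MG132, by 8.45% of 13920 with epoxomicin and by 3.25% of 13860 with ONX. None of the ligand genes was at least 2-fold lower with any inhibitor, where the shares over all genes were 3.66% with MG132, 4.38% with epoxomicin and 1.39% with ONX. The median difference of the ligand genes compared was 0.96, 0.96 and 0.44 with MG132, epoxomicin and ONX on the log2 scale, against -0.02, -0.04 and -0.00 over all genes compared. The epoxomicin value lies midway between *Cd86* (1.03) and the bound given below for *Pdcd1lg2* (0.89), and under normexp, a model-based background correction, it was 0.26. The DMSO array is shared by the 3 comparisons, which are therefore not independent of each other. A gene entered a comparison if either array showed it well above background. In RNA of a whole culture, a change in the number of cells that express a gene and a change in the RNA per cell cannot be told apart.

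**Figure D1:**
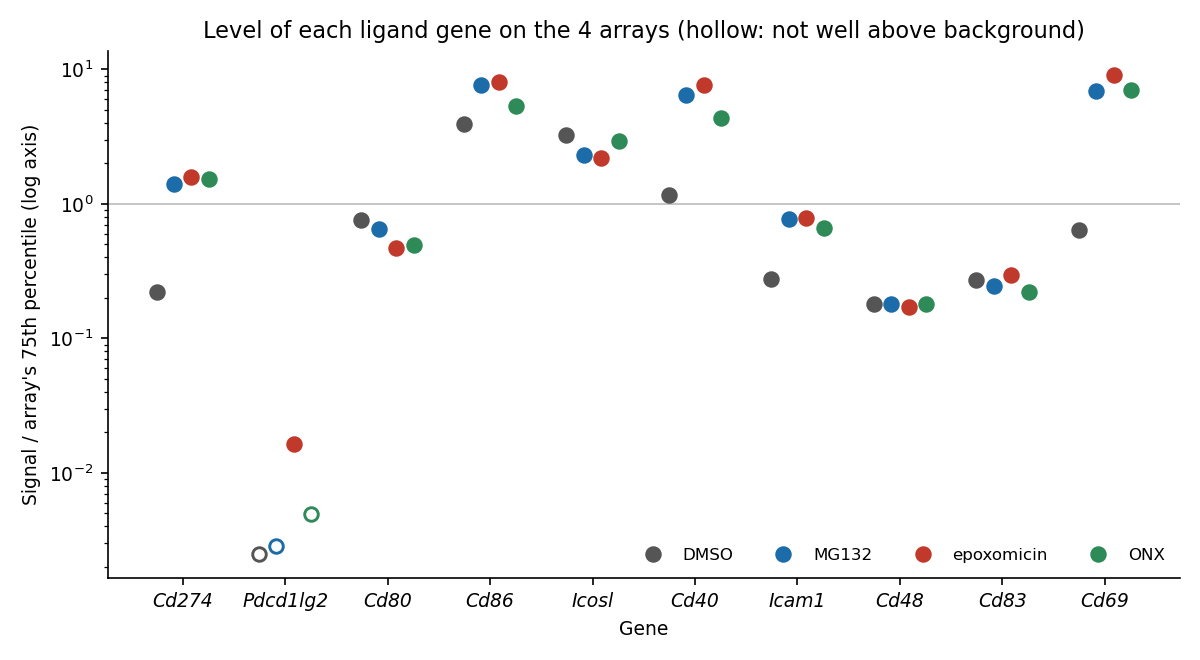
Processed signal of each gene divided by the 75th percentile of its array (log axis), with 1 point per array, filled where the probe was well above background and hollow where it was not. Levels can be compared between the arrays within a gene and not between genes. The DMSO point lies apart below the inhibitor points for *Cd274*, *Cd40*, *Icam1* and *Cd69*, and the 4 points of *Cd48* lie close together.

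**Figure D2:**
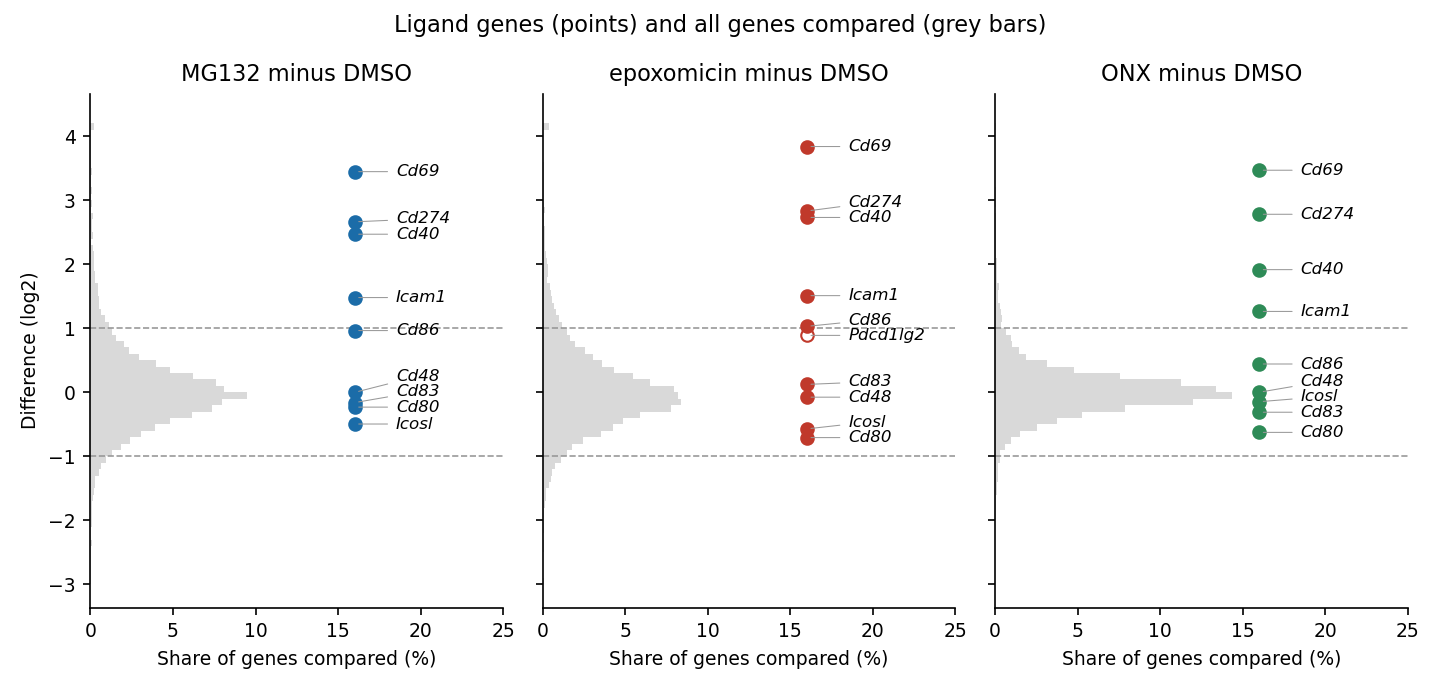
Difference of each ligand gene from DMSO (points, log2 scale, hollow for a bound, with no meaning in their horizontal place) beside the distribution over all genes compared (grey bars, share of genes in percent per 0.1 on the log2 scale, with more extreme values in the end bars). Dashed lines mark 2-fold. *Cd69* was the highest of the ligand genes with each inhibitor, at 3.45, 3.84 and 3.47.

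*Cd274* (transcript NM_021893) encodes PD-L1, the ligand through which macrophages and tumor cells engage the inhibitory receptor PD-1. Its probe gave a processed signal of 366 with DMSO and 2038, 2639.5 and 2446 with MG132, epoxomicin and ONX, in that order. The DMSO array was lowest by far, and the inhibitor arrays lay close to each other. After scaling to the 75th percentile of each array, the level was 6.33-fold higher with MG132 (2.66 on the log2 scale), 7.11-fold with epoxomicin (2.83) and 6.87-fold with ONX (2.78). Among all genes compared, 0.96% had a larger difference with MG132, 1.11% with epoxomicin and 0.303% with ONX. The step from the epoxomicin to the ONX array (0.05) was within the spread between spots, and that from ONX to MG132 (0.12) was just above it.

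*Pdcd1lg2* (transcript NM_021396) encodes PD-L2, the other ligand of PD-1, and lies next to *Cd274* on chromosome 19. Its signal was 4.12 with DMSO and 4.14, 27.6 and 7.95 with MG132, epoxomicin and ONX. Only the epoxomicin value was well above background, and the lowest signal of any probe that was so lay between 14.7 and 20.4, depending on the array. With the processed signals, the level was at least 1.85-fold higher with epoxomicin than with DMSO (0.89), and it was not compared with DMSO for MG132 and ONX. This bound did not hold under normexp, where the direction turned (-1.37), or under normexp fitted without outlier spots, a setting added after the data were seen (0.29). Against the other inhibitors, the epoxomicin value in the reported processing was at least 1.34-fold higher than with MG132 and at least 1.37-fold higher than with ONX. These bounds also depend on the processing. Under other settings they fell to as little as 0.14 over MG132, and to -0.25 for ONX against epoxomicin, on the log2 scale. With the processed signal itself in place of the bound, the difference from DMSO was 2.72 on the log2 scale, and in the authors' own table of normalized log2 values it was 2.69, values that rest on a signal at background. The direction and size of the difference of *Pdcd1lg2* from DMSO thus depend on the processing.

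*Cd86* (transcript NM_019388) encodes CD86, a ligand that binds CD28 and CTLA4 and is carried by resting macrophages. Its signal was 6495 with DMSO and 11143, 13441 and 8586 with MG132, epoxomicin and ONX. The inhibitor arrays were all above the DMSO array, with ONX the nearest to it. The level was 1.95-fold higher with MG132 (0.96), 2.04-fold with epoxomicin (1.03) and 1.36-fold with ONX (0.44), so that the gene passed 2-fold with epoxomicin alone. That call sat at the threshold. It was lost when arrays were scaled to their median (0.96) or to the 75th percentile over probes instead of spots (0.996), under normexp fitted without outlier spots (0.95), and in the authors' table (0.996). With MG132, the gene passed 2-fold under normexp fitted with these spots (1.03) and when scaled to *Hprt* (1.17).

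*Cd80* (transcript NM_009855) encodes CD80, which binds CD28 and CTLA4 more tightly than CD86 does and also binds PD-L1 on the same cell. The probe that stood for the gene, the brighter one, gave a signal of 1262 with DMSO and 945, 784 and 796 with MG132, epoxomicin and ONX. The DMSO array was highest, yet no difference reached 2-fold, at -0.23 with MG132, -0.71 with epoxomicin and -0.63 with ONX. A second probe for the same transcript gave 39.9 with DMSO and 93.6, 90.9 and 63.7 with MG132, epoxomicin and ONX, all well above background. By this probe the DMSO array was lowest, and the differences were 1.42, 1.17 and 0.71 with MG132, epoxomicin and ONX. The gap between both probes was 1.65, 1.88 and 1.34 with MG132, epoxomicin and ONX. Of 2722 genes with 2 probes well above background, 0.588%, 0.514% and 0.478% had a larger gap in the same comparisons, and the median gap was between 0.128 and 0.151. The direction of *Cd80* therefore depends on the probe.

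*Icosl* (transcript NM_015790) encodes the ligand of ICOS, a costimulatory receptor of activated T cells. Its signal was 5335 with DMSO and 3330, 3641 and 4689.6 with MG132, epoxomicin and ONX. The DMSO array was the highest and the ONX array came next. The differences were -0.50, -0.57 and -0.15 with MG132, epoxomicin and ONX, all under 2-fold. The MG132 and epoxomicin arrays did not differ beyond the spread between spots.

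*Cd40* (transcript NM_011611) encodes the receptor through which CD40 ligand on T cells activates macrophages, B cells and dendritic cells. Its signal was 1911 with DMSO and 9304, 12852 and 7017 with MG132, epoxomicin and ONX. Every inhibitor array was well above the DMSO array, and the 3 inhibitor arrays were further apart than for *Cd274*. The level was 5.53-fold higher with MG132 (2.47), 6.63-fold with epoxomicin (2.73) and 3.77-fold with ONX (1.92). Larger differences were found in 1.18% of the genes with MG132, 1.24% with epoxomicin and 0.916% with ONX.

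*Icam1* (transcript NM_010493) encodes ICAM-1, the adhesion molecule that LFA-1 of T cells binds when they contact an antigen-presenting cell. Its signal was 457 with DMSO and 1120.3, 1318 and 1067 with MG132, epoxomicin and ONX. The inhibitor arrays were again above the DMSO array and close to each other. The level was 2.79-fold higher with MG132 (1.48), 2.85-fold with epoxomicin (1.51) and 2.4-fold with ONX (1.26). Under normexp background correction, all 3 differences were under 2-fold, at 0.78, 0.77 and 0.56. With outlier spots left out of that fit, a setting added after the data were seen, only the ONX difference was under it, at 0.99.

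*Cd48* (transcript NM_007649) encodes a ligand of CD244 (2B4) and, in mice, of CD2. Its brighter probe gave a signal of 297 with DMSO and 261, 286 and 289 with MG132, epoxomicin and ONX. In the reported processing, no array differed from another beyond the spread between spots. The differences from DMSO were -0.00 with MG132, -0.08 with epoxomicin and 0.00 with ONX. Under normexp they were beyond that spread, at -0.435, -0.47 and -0.51 in the same order. With outlier spots left out of that fit, a setting added after the data were seen, they were within it, at 0.06, 0.01 and -0.02. Scaled to *Hprt*, the MG132 difference was 0.20. Whether *Cd48* stayed within the spread thus depends on the processing. The second probe for this gene was well above background on the DMSO array only.

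*Cd83* (transcript NM_009856) encodes CD83, a surface marker of mature dendritic cells that stabilizes MHC class II and CD86 on the cell. Its signal was 452 with DMSO and 355, 498 and 354 with MG132, epoxomicin and ONX. The epoxomicin array was highest and the ONX array lowest, with DMSO between them. The differences were -0.16, 0.12 and -0.31 with MG132, epoxomicin and ONX, all under 2-fold. Under normexp the epoxomicin difference turned to -0.26, and scaled to *Hprt* the MG132 difference turned to 0.04. The order of the arrays thus depends on the processing.

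*Cd69* (transcript NM_001033122) encodes CD69, an early activation marker of leukocytes that retains them in tissue by removing the sphingosine-1-phosphate receptor S1PR1 from the surface. Its signal was 1053 with DMSO and 10087, 15254 and 11333 with MG132, epoxomicin and ONX. It had the largest difference of the group on each inhibitor array. The level was 10.9-fold higher with MG132 (3.45), 14.3-fold with epoxomicin (3.84) and 11.1-fold with ONX (3.47). Of all genes compared, only 0.397% had a larger difference with MG132, 0.417% with epoxomicin and 0.137% with ONX. *S1pr1* itself differed from DMSO by 0.18, -0.00 and -0.30 with MG132, epoxomicin and ONX.

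The inhibitors were given at the same dose and time, and 3 pairs of them were compared. None of the 9 ligand genes that all arrays detected differed by 2-fold between any pair. For *Pdcd1lg2*, the bounds of 0.43 for epoxomicin against MG132 and -0.46 for ONX against epoxomicin do not show whether the epoxomicin value was 2-fold higher. It was past 2-fold with the processed signal itself, by 2.53 over MG132 and at -1.74 for ONX against epoxomicin, and in the authors' table, at 2.53 and -1.72. Over all genes, 1.52% of 13631 passed 2-fold in either direction between epoxomicin and MG132, 4.11% of 13706 between ONX and MG132 and 5.97% of 13791 between ONX and epoxomicin. Of those 9 ligand genes, *Cd40* had the largest difference between inhibitors, with a level 1.76-fold lower with ONX than with epoxomicin (-0.81) and 1.47-fold lower than with MG132 (-0.55). *Cd86* was lower with ONX in the same way, by -0.59 against epoxomicin and by -0.52 against MG132. *Icosl* was higher with ONX than with epoxomicin (0.42) and with MG132 (0.35). These differences exceeded the spread between spots (0.0868) several times. By contrast, *Cd274* differed by 0.17 between epoxomicin and MG132, by 0.12 between ONX and MG132 and by -0.05 between ONX and epoxomicin. For *Cd69*, the ONX and MG132 arrays were 0.02 apart, and the epoxomicin array was above both, by 0.39 over MG132 and by 0.37 over ONX. *Icam1* was lower with ONX than with epoxomicin (-0.25) and with MG132 (-0.22). No interval between cultures can be given, so a small difference does not show that the inhibitors acted alike.

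**Figure D3:**
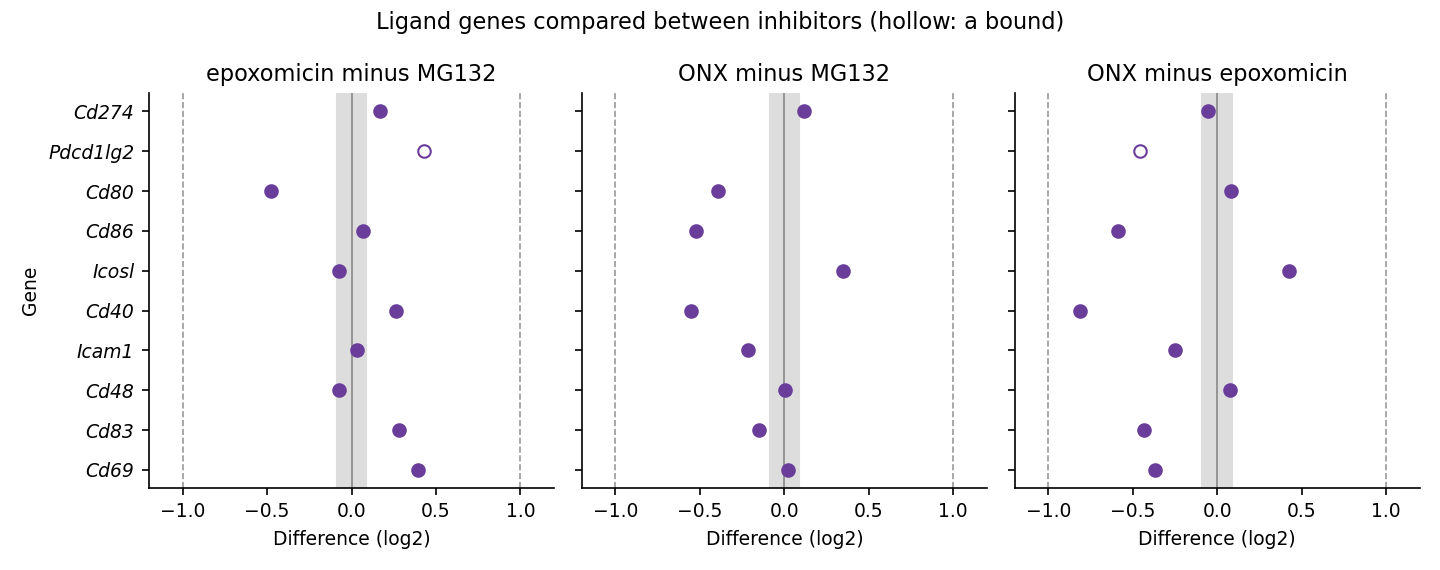
Difference of each ligand gene between inhibitors (log2 scale, 1 array each), with hollow points for bounds. The grey band is the spread between spots (0.0868 to either side of 0), and dashed lines mark 2-fold, which no filled point reaches. The hollow points of *Pdcd1lg2* give only the least size in the reported processing. *Cd40* with ONX against epoxomicin is the farthest filled point, at -0.81.

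The receptors and other partners of these ligands were examined as a list of 13 genes. With MG132, 1 of 10 genes compared was at least 2-fold higher and 0 lower, with epoxomicin 1 was higher and 1 lower, and with ONX none passed the threshold. The list's medians were 0.11, -0.04 and -0.21. The counts of this list and those that follow stand beside 7.2%, 8.45% and 3.25% of all genes higher and 3.66%, 4.38% and 1.39% lower with MG132, epoxomicin and ONX. The gene that was higher was *Pdcd1*, which encodes PD-1. Its signal was 74.6 with DMSO and 273.9, 434.7 and 94.0 with MG132, epoxomicin and ONX. The difference was 2.06 with MG132 and 2.52 with epoxomicin, while with ONX it was 0.37. *Spn*, which encodes CD43, a ligand of ICAM-1, was lower by the most, at -0.93 with MG132, -1.27 with epoxomicin and -0.50 with ONX. *Ctla4*, *Cd40lg* and *Cd2*, genes of T cells, were well above background on no array. Other T cell genes of the list were not at background. *Cd28*, which encodes the receptor of CD80 and CD86, was well above background on every array. Its signal was 14806 with DMSO and 12819.5, 14238 and 12204 with MG132, epoxomicin and ONX. *Icos* was well above background on every array except ONX.

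Among 15 other ligands of costimulation and checkpoints, 14 had a probe and 9 were compared with each inhibitor. *Pvr*, which encodes CD155, a ligand of DNAM-1 and TIGIT, was the only one at least 2-fold higher, at 1.06 with MG132, 1.01 with epoxomicin and 1.04 with ONX. These values sit at the threshold. *Lgals9* and *Cd276* were just under it with MG132 (0.93 and 0.95) and epoxomicin (0.98 and 0.89), and differed by 0.65 and -0.22 with ONX. Other settings are not reported for this list, so which genes pass may depend on the scaling. *Vsir*, which encodes the inhibitory ligand VISTA, was lower by -1.35 with MG132 and -1.52 with epoxomicin, while its difference with ONX was -0.60. The medians of the list were 0.17, 0.32 and 0.08 with MG132, epoxomicin and ONX. *Ceacam1* had no probe named here.

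The SLAM family, to which *Cd48* belongs, had 6 of 9 genes compared. *Slamf7*, which encodes a receptor that macrophages also carry, was the highest, at 3.43 with MG132, 3.36 with epoxomicin and 2.72 with ONX. Its signal rose from 17.2 with DMSO, just above background, to 163.0 with MG132, 178.8 with epoxomicin and 110.4 with ONX. *Slamf1* was lower, by at least -1.99 with MG132 and at least -2.02 with ONX, and it was just short of 2-fold lower with epoxomicin. *Slamf7* and *Slamf1* lie near *Cd48* on chromosome 1. The medians of the family were -0.23, -0.22 and 0.05 with MG132, epoxomicin and ONX.

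Of the 12 other adhesion genes, 11 were compared, and the medians were -0.13, -0.25 and 0.05 with MG132, epoxomicin and ONX. At least 2-fold higher were 1 with MG132, 1 with epoxomicin and 0 with ONX. *Icam4*, a neighbour of *Icam1* on chromosome 9, was lower with epoxomicin (-1.12), and it differed by -0.76 with MG132 and -0.07 with ONX. The largest decrease with MG132 was that of *Selplg* at -0.88 and with ONX that of *Icam2* at -0.69, both under 2-fold.

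Of 15 genes of CD40 signalling, 14 were compared with MG132 and with epoxomicin and 15 with ONX. At least 2-fold higher were 1 with MG132, 1 with epoxomicin and 0 with ONX, and 0 were lower, which is near the share over all genes. *Traf6*, an adaptor that CD40 recruits, was the only gene past 2-fold, at 1.07 with MG132 and 1.35 with epoxomicin, and its difference with ONX was 0.69. *Map3k14*, the kinase of the noncanonical NF-kB pathway, had the lowest difference with MG132 (-0.24) and epoxomicin (-0.43), and *Tnfaip3* had the lowest with ONX (-0.21). *Rel*, well above background with ONX alone, was at least 0.80 higher there on the log2 scale. The medians of the list were 0.25, 0.08 and 0.18 with MG132, epoxomicin and ONX.

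Of 13 genes known to regulate PD-L1, 4 were at least 2-fold higher with each inhibitor, and 2 were lower with MG132 and with epoxomicin and 0 with ONX. *Irf1*, the interferon regulatory factor that acts on the PD-L1 gene, had a signal of 9157 with DMSO and 45798, 64688 and 55070 with MG132, epoxomicin and ONX. The inhibitor arrays were all far above the DMSO array, with differences of 2.51, 2.80 and 2.63. *Stat2*, which encodes a component of the complex that carries the type I interferon signal, was higher by 2.31, 2.45 and 1.49 with MG132, epoxomicin and ONX. *Zfp36*, which encodes tristetraprolin, a protein that destabilizes PD-L1 mRNA among others, was higher by 2.13, 2.55 and 1.76 with MG132, epoxomicin and ONX. Both receptor genes of interferon-γ were lower with MG132 and epoxomicin. *Ifngr2* was lower with MG132 (-1.72) and epoxomicin (-2.28) and differed by -0.76 with ONX, and *Ifngr1* was lower by -1.15 with MG132 and -1.13 with epoxomicin and differed by -0.69 with ONX. The medians of the list were 0.06, 0.27 and 0.13 with MG132, epoxomicin and ONX, against 0.96, 0.96 and 0.44 for the ligand genes. *Marchf1* and *Marchf8*, which encode ubiquitin ligases that remove CD86 from the surface, were under 2-fold with each inhibitor, between -0.44 and 0.47.

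**Figure D4:**
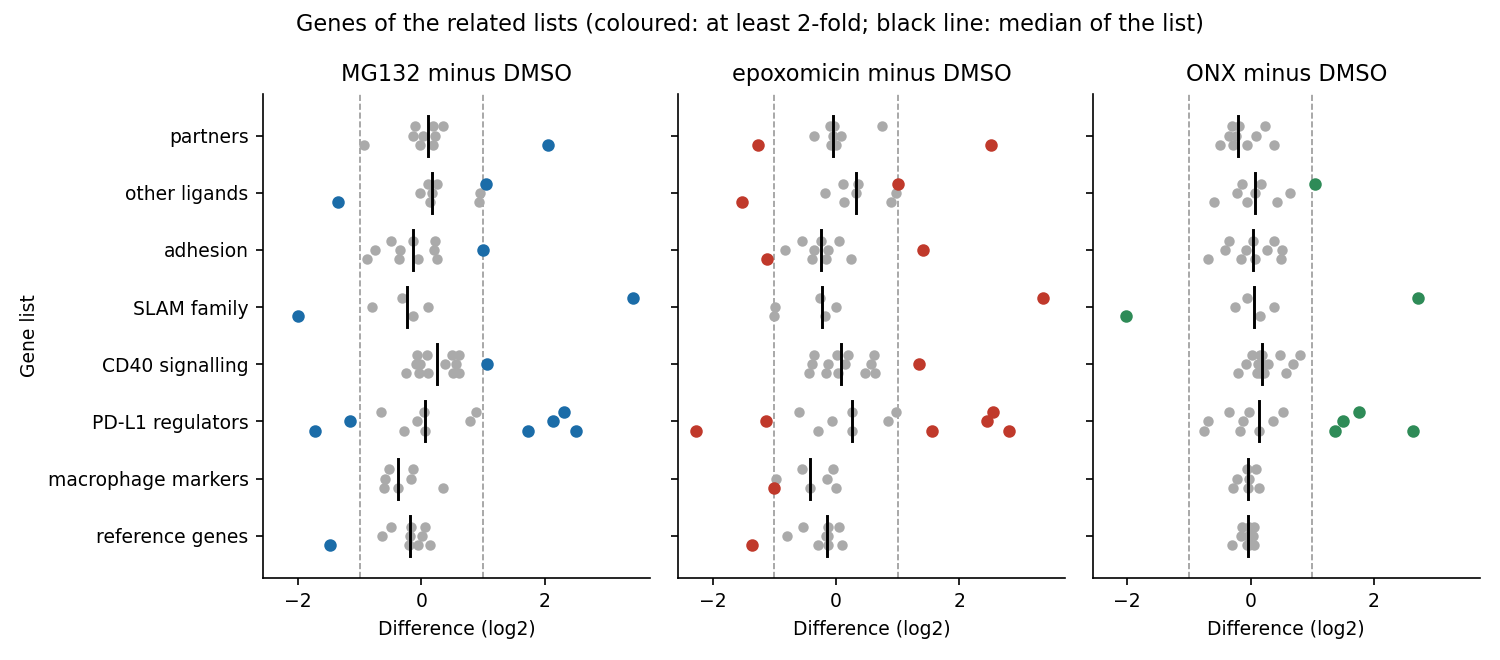
Difference from DMSO (log2 scale) of the genes of 8 related lists, with 1 point per gene compared, coloured where it was at least 2-fold, and a black line at the median of the list. Dashed lines mark 2-fold. The list medians lie between -0.42 and 0.32, and single genes such as *Slamf7* and *Irf1* lie far from them.

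For each ligand gene past 2-fold, the 3 genes with the nearest pattern were sought among 12729 others well above background on every array, by the Euclidean distance over the 3 log2 differences from DMSO. For *Cd274*, the nearest was *Irf1* at a distance of 0.218, followed by *Sesn2* (0.482) and *Gbp4* (0.502). *Cd40* was nearest to *Gbp8* (0.183), *Xaf1* (0.207) and *Nfil3* (0.209). *Cd69* was nearest to *Ifit1* (0.208), *Gbp2* (0.427) and *Gbp5* (0.494). *Icam1* had *AF067061* (0.0653), *Zfand5* (0.0788) and *Tcstv3* (0.111) nearest to it, and *Cd86* had *Car13* (0.035), *Ighmbp2* (0.0384) and *H3f3b* (0.0402).

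The 2 protein-coding genes on each side of a ligand gene were examined, which gave 36 neighbours. With MG132, 27 of them were compared, of which 3 were at least 2-fold higher and 3 lower. With epoxomicin, 28 were compared, with 3 higher and 4 lower, and with ONX 26, with 3 higher and 1 lower. Over all genes, 7.2% were higher and 3.66% lower with MG132, 8.45% and 4.38% with epoxomicin and 3.25% and 1.39% with ONX, and with so few neighbours nothing is read from the counts. Upstream of *Cd274*, *Plgrkt* differed by -0.43, -0.43 and -0.04 with MG132, epoxomicin and ONX, and *Rln1* was well above background on no array. On the far side of *Pdcd1lg2*, *Ric1* differed by 0.78, 0.91 and 0.25 and *Ermp1* by -1.21, -1.07 and 0.01 with the same inhibitors. Beside *Cd40*, *Ncoa5* differed by 0.17, 0.16 and 0.13 with MG132, epoxomicin and ONX. *Icam1* lies between *Mrpl4*, with differences of -0.33, -0.36 and -0.05, and *Icam4*. Near *Cd69*, *Clec2d*, which encodes another C-type lectin-like receptor, was at least 2-fold higher with ONX (1.12) and differed by 0.77 with MG132 and 0.46 with epoxomicin. *Pla1a*, near *Cd80*, was higher by at least 3.92 with MG132 and at least 4.30 with epoxomicin and was not well above background with DMSO and ONX.

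Defining markers of the macrophage were present on every array. Of 8 markers, 7 had a probe, and all of these were well above background. The summed processed signal of the list, not scaled between arrays, was 351872 with DMSO and 269474, 303423 and 330329 with MG132, epoxomicin and ONX. Their median difference was -0.38, -0.42 and -0.04 with MG132, epoxomicin and ONX, and *Lyz2* was at least 2-fold lower with epoxomicin (-1.01). *Itgam* had the highest difference with MG132 (0.35). The median of the macrophage markers, not every marker, thus lay below DMSO on the MG132 and epoxomicin arrays. There *Cd274*, *Cd40* and *Cd69* were higher, and the part of the markers in the result was not tested. Markers of other cells were mostly at background, with 4 of 5 for B cells, 3 of 5 for dendritic cells, 3 of 4 for NK cells and 2 of 4 for fibroblasts well above background on no array. Of 6 T cell markers, *Cd3d*, *Cd3g* and *Cd8a* were well above background on no array, whereas *Cd3e*, *Cd4* and *Lck* were so on all of them. The summed processed signal of the 6, also not scaled between arrays, was 6792 with DMSO and 7921, 9009 and 8285 with MG132, epoxomicin and ONX. *Lck* was higher with MG132 (1.26) and epoxomicin (1.44) and differed by 0.90 with ONX, and the part of these genes in the results above was not tested. Of the epithelial markers, *Krt8* was higher by at least 1.55 with MG132 and at least 3.02 with epoxomicin and *Krt18* by at least 1.18 with epoxomicin, while *Epcam* and *Cdh1* were well above background on no array.

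Reference genes gave a measure of the scaling. Over 10 such genes, the middle difference came to -0.18, -0.15 and -0.04 with MG132, epoxomicin and ONX. *Hprt* differed by -0.20, -0.17 and -0.03, and scaling to *Hprt* alone raised every measured difference from DMSO by the size of these values. *Gusb* was the exception among them, at -1.48 with MG132 and -1.36 with epoxomicin.

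**Figure D5:**
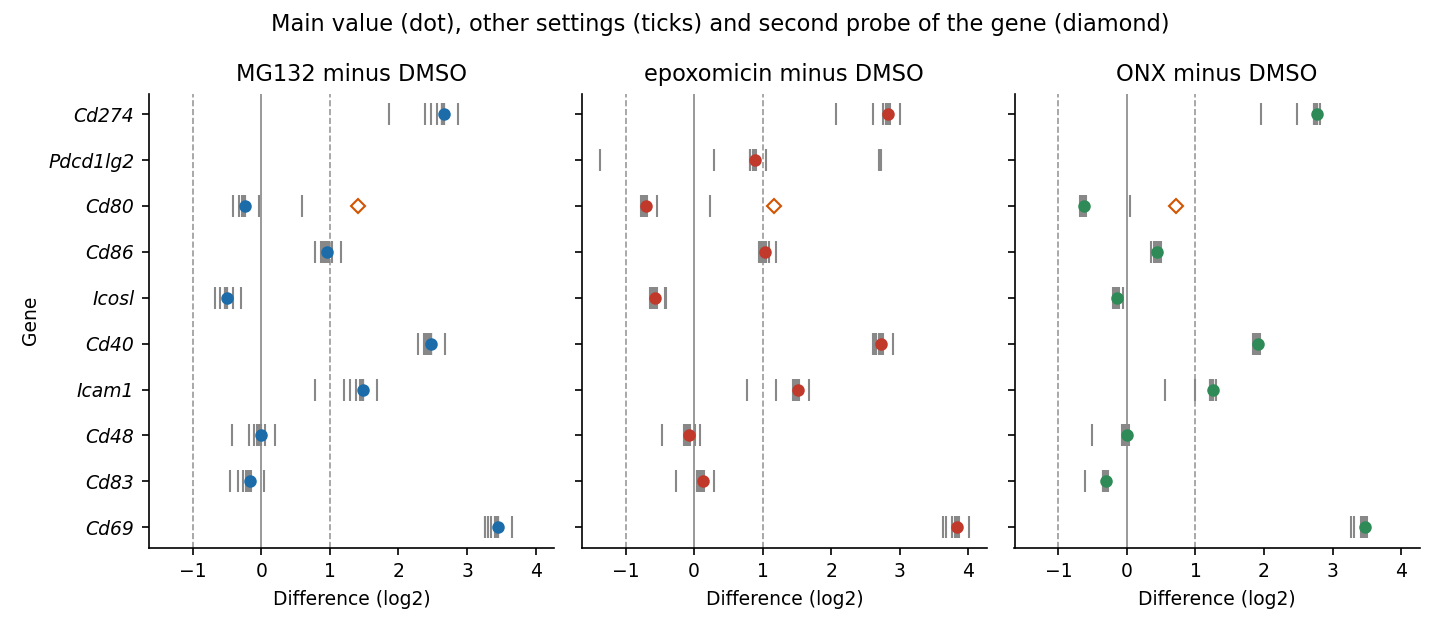
Difference of each ligand gene from DMSO (log2 scale) as reported (dot), under 12 other settings of the processing (grey ticks) and by the second probe of *Cd80* (open diamond). Dashed lines mark 2-fold. The ticks of *Cd274*, *Cd40* and *Cd69* stay above 2-fold with each inhibitor, and *Cd80* changes direction with the probe.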

How the data were processed

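RNA of 4 J774 cultures was measured on single-color arrays. The authors deposited scanner files (Feature Extraction 10.7.1.1) that give a background-subtracted intensity per spot, not scaled between arrays. They also deposited a table of log2 values. Its columns had medians between -0.0475 and 0.0180, and it matched the scanner values scaled to the 75th percentile and centred probe by probe on the median of the arrays, with median gaps of at most 0.026. The genes and lists were chosen with earlier results of these data known. Control and outlier spots were left out, the 75th percentile over spots was subtracted on the log2 scale, and spots of one probe were averaged. Accessions named 26581 probes (67.4%) through RefSeq (GRCm38.p6). The probe with the highest mean stood for a gene. Where the dimmer array did not show a probe well above background, the higher of its own signal and the lowest signal well above background there gave a bound. The text names every ligand gene, list genes past 2-fold with all inhibitors or with the largest or smallest difference, nearest genes, neighbours and *Hprt*. *S1pr1*, *Ifngr1*, *Cd28*, *Icos*, *Lgals9*, *Cd276* and genes named as at background were added after their values were seen. Of the list genes, 2 that count in their lists are not reported by name here. No test was run. The calculations were tested on simulated data in Python 3.11.15 (numpy 2.4.6, pandas 2.3.3, matplotlib 3.10.9). R 4.3.3 and limma 3.58.1 gave the normexp and quantile alternatives. The other alternatives were no scaling, *Hprt*, the median or another 75th percentile for scaling, the authors' table, the mean over probes, outlier spots kept, no bounds, other detection filters, and thresholds of 1.5-fold and 4-fold.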

Additional observations from a re-analysis of the deposited data

How the results depend on the processing

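With MG132, the median difference of the ligand genes was 0.78 under normexp, 0.86 with arrays scaled to their median, 0.78 without scaling and 1.17 scaled to *Hprt*. With epoxomicin it was 0.26 under normexp, 0.62 under normexp fitted without outlier spots (chosen after seeing the data), 1.12 scaled to *Hprt*, 1.24 in the authors' table and 1.27 with the signal itself in place of the bound for *Pdcd1lg2*. With ONX it lay between 0.36 and 0.50, and its change from 0.44 stayed within the spread between spots under every setting. The number of genes at least 2-fold higher ranged from 4 to 5 for MG132, from 4 to 6 for epoxomicin and from 3 to 4 for ONX. At 4-fold it was 3, 3 and 2. The number lower was 0 in nearly every case, and 1 with epoxomicin under normexp (*Pdcd1lg2*, at -1.37) and 1 with epoxomicin and 1 with ONX at 1.5-fold (*Cd80*). No difference past 2-fold changed direction under 12 settings. Of 57 member differences, 8 crossed 2-fold under at least 1 setting, and 18 changed sign, 11 of them smaller than the spread between spots. The cause was not tested.

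Over all genes, the median difference shifted by -0.18 without scaling and by 0.21 with *Hprt* for MG132, and by 0.17 with *Hprt* for epoxomicin. Under normexp the shift was -0.27, -0.28 and -0.17 with MG132, epoxomicin and ONX. With outlier spots left out of that fit, it was 0.05, 0.00 and -0.00. Of the genes past 2-fold, 66.3% were higher with MG132, against 45% without scaling, 54.8% by the array median and 83% with *Hprt*. For epoxomicin this share was 65.8%, and 80% with *Hprt*. Under normexp it was 14.8%, 15% and 6.24% for MG132, epoxomicin and ONX, and 68%, 64.7% and 74.4% with outlier spots left out of the fit. A slide effect could not be fitted because all arrays lay on 1 slide, and with 1 array per condition none could be left out. Signals near background, as for *Pdcd1lg2*, give bounds only.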
